A study of Gallus gallus with 12 samples.

Results

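Amacrine cells and horizontal cells are the inhibitory interneurons of the inner nuclear layer of the retina, and 10 genes that direct their formation or mark their transmitter were followed here by gene name. The genes were PTF1A, PRDM13, PAX6, NEUROD6, NHLH1, TFAP2A, TFAP2B, PROX1, LHX1 and GAD1, 10 of the 24358 genes in the table. All 10 were among the 15284 genes that had at least 10 reads in at least 3 libraries and were tested. PAX6, PTF1A, PRDM13, TFAP2A and TFAP2B reached 10 reads in at most 2 of the 9 cell lines, so those genes passed this filter through the retina libraries.

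In the vertebrate retina, multipotent progenitors give rise to amacrine and horizontal cells through a shared step that depends on the basic helix-loop-helix factor PTF1A. Factors that act after it separate horizontal cells, which receive signals from photoreceptors and feed back on them, from the many types of amacrine cells, which use GABA or glycine and act on bipolar and ganglion cells. Cones and rods arise from the same progenitors under other factors, OTX2 and CRX among them.

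The libraries came from White Leghorn chicken cells and tissue. MYCN-T58A DMC cells are the lines DMC4, DMC5 and DMC6, which carry human MYCN with the stabilising T58A mutation and had been cultured for over 200 days. The sample labels tag DMC4 and DMC5 with RPMI and DMC6 with DMEM, both names of culture media, and a difference in medium cannot be told apart from the line itself. Old DMC cells (DMC1, DMC2 and DMC3) and young DMC cells (DMC8, DMC9 and DMC10) carry unmutated human MYCN, and had been cultured for over 200 days and for up to 4 weeks. All 9 lines share a piggyBac insertion of human MYCN and GFP under the ubiquitous CAG promoter, which was electroporated at E3.5, and were started from GFP-positive regions of retinas taken at E14. Each line was sequenced as 1 library and is 1 line, and cells without GFP died in culture. The lines were set against the central region of 3 E14 retinas that had not been electroporated. In such bulk samples, fewer cells of a type and less RNA per cell cannot be told apart.

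Values are given as normalized counts, that is, reads recovered from the deposited table and scaled to a common library size. The libraries held 20984957 to 35088450 recovered reads. Library-to-library correlations within a group were 0.881 to 0.923 in MYCN-T58A DMC cells, 0.924 to 0.966 in old DMC cells, 0.957 to 0.967 in young DMC cells and 0.974 to 0.985 in E14 retina (Pearson, log2 scale, across genes, which are not independent). DMC5 stood apart, with 0.528% of its reads on the transgenes where the other lines had 1.54% to 2.70%. A gene was called differentially expressed (DE) where limma gave an adjusted p no higher than 0.05 and a log2 fold change of 1 or more in size. Fold changes are on the scale of log2 of the normalized count plus 1, which understates the change of genes with few reads.

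Of the 10 regulators, 9 were DE and lower in MYCN-T58A DMC cells than in E14 retina, 9 in old DMC cells and 8 in young DMC cells. Over all genes tested, 24.8%, 23.5% and 23% were DE and lower in the same comparisons. The 5 genes that passed the filter through the retinas had to be lower in the lines. The counts over the 10 genes, and the DE calls, adjusted p values and ranks of these 5, are therefore a description. Of the other 5 genes, NEUROD6, NHLH1, PROX1, LHX1 and GAD1, 4, 4 and 3 were DE and lower in MYCN-T58A, old and young DMC cells. None of the 10 was DE and higher in any of these groups, also with limma's voom weights, where 19.6%, 20.3% and 20.5% of all genes were. LHX1 was the exception in every group, and NHLH1 did not pass the criteria in young DMC cells. Under other alternatives, given with LHX1 below, LHX1 was DE and higher in young DMC cells, in old DMC cells or over all 9 lines.

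The median log2 fold change of these other 5 genes was -6.08, -6.70 and -3.40 in MYCN-T58A, old and young DMC cells, beside medians over all genes of -0.10, -0.05 and -0.03. For 9 of the 10 genes, 4 of these 5 among them, every DMC line lay below every retina library, which held for 25.9% of all genes. Taken group by group, the same 9 genes had every line of the group below every retina, beside 32.8%, 35.9% and 38.1% of all genes for MYCN-T58A, old and young DMC cells. With all 9 lines as 1 contrast, 9 regulators were DE and lower and 0 DE and higher by limma and with voom weights, beside 25.8% and 21.3% of all genes. The comparisons share the E14 retina libraries and are not independent of each other.

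**Figure D1:**
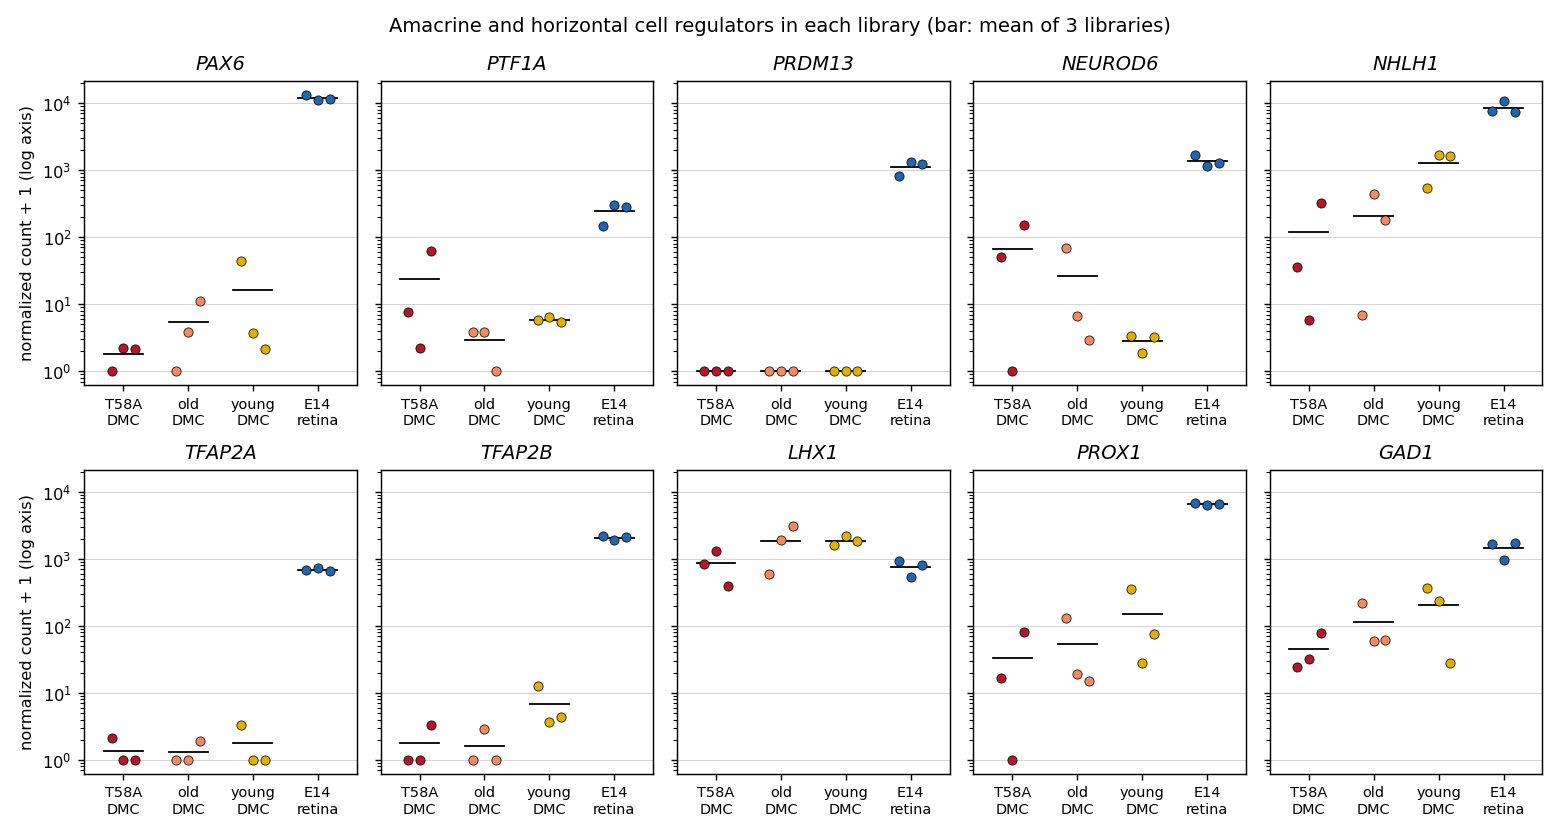
Normalized count plus 1 on a log axis for each of the 10 regulators, with 1 point per library and a bar at the mean of the 3 libraries of MYCN-T58A DMC, old DMC, young DMC and E14 retina. PRDM13 sits at 0 reads in all 9 lines, and 8 other genes are lower in every line than in every retina. LHX1 overlaps the retina libraries in MYCN-T58A DMC, where DMC6 lies below them, and in old DMC. In young DMC it lies above them.

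PTF1A, which in the mouse is required for horizontal cells and most amacrine cells, had 6.69, 1.19 and 60.9 normalized counts in DMC4, DMC5 and DMC6, 2.89, 2.82 and 0 in DMC1, DMC2 and DMC3, 4.71, 5.39 and 4.43 in DMC8, DMC9 and DMC10, and 147, 298 and 282 in the E14 retinas. DMC6 was the highest line, at 25.1% of the retina mean with 53 reads, and each of the other 8 lines held at most 6 reads. The log2 fold change was -4.52 (standard error 1.02, limma adjusted p = 0.00318) in MYCN-T58A, -6.56 (1.02, 3.0e-04) in old and -5.32 (1.02, 0.00117) in young DMC cells. PTF1A fell in each DMC group, with no overlap between lines and retinas, an order that 25.9% of all genes had. Its value in MYCN-T58A DMC cells was -5.82 without DMC6 and -3.41 without DMC5.

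PRDM13, a zinc finger repressor that acts downstream of PTF1A in the mouse retina and favours amacrine types, had 0 reads in all 9 lines. The E14 retinas held 922, 1474 and 1363 reads, or 818, 1298 and 1239 normalized counts. Against a floor of 3 reads over the libraries of a group, PRDM13 was at least 971-fold lower in MYCN-T58A, at least 1181-fold lower in old and at least 1067-fold lower in young DMC cells, and at least 3219.5-fold lower over the 9 lines together. These bounds cover counting error only. PRDM13 met the DE criteria in each comparison (limma adjusted p = 1.2e-07 in MYCN-T58A and 1.0e-07 in old and in young DMC cells). With 0 reads in every line, these p values measure no spread between lines, and the gene was tested only through its retina reads. No other regulator was without reads in every line.

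PAX6, a paired-box and homeodomain factor of retinal progenitors that stays on in amacrine, horizontal and ganglion cells, had 0, 1 and 1 reads in DMC4, DMC5 and DMC6, 0, 3 and 11 reads in DMC1, DMC2 and DMC3, and 36, 3 and 1 reads in DMC8, DMC9 and DMC10. The E14 retinas held 14903, 12490 and 12721 reads. In normalized counts this was 0.781 ± 0.677 in MYCN-T58A DMC, 4.38 ± 5.34 in old DMC, 15.4 ± 23.4 in young DMC and 11932 ± 1159 in E14 retina (SD, n = 3 each). DMC8 was the highest line, at 0.355% of the retina mean.

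PAX6 had the lowest log2 fold change of all 15284 genes in MYCN-T58A DMC cells, -12.79 (standard error 1.09, limma adjusted p = 5.7e-06). In old DMC cells its log2 fold change was -11.73 (1.09, 1.0e-05), number 5 from the lowest, and in young DMC cells it was -10.74 (1.09, 1.8e-05), number 4 from the lowest. PAX6 passed the filter through the retinas, so these ranks and p values are a description. With so few reads in the MYCN-T58A lines, the value there largely follows the retina level and the added pseudocount. As ratios of means, PAX6 was 2724-fold lower in old and 775-fold lower in young DMC cells. With only 2 reads in MYCN-T58A DMC cells, the ratio there was 15542-fold, with a counting interval of 4302 to 128336. The young value was -12.06 without DMC8 and -9.88 without DMC10, and the old one -12.57 without DMC3 and -10.82 without DMC1.

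NEUROD6, a basic helix-loop-helix factor that in the mouse marks a subset of amacrine cells without GABA or glycine, had 49.0, 0 and 150.4 normalized counts in DMC4, DMC5 and DMC6, 67.4, 5.63 and 1.88 in DMC1, DMC2 and DMC3, and 2.36, 0.899 and 2.22 in DMC8, DMC9 and DMC10. The E14 retinas had 1651, 1129.8 and 1266. The lines with 44 to 131 reads, DMC4, DMC6 and DMC1, all came from the long-term cultures, where the other 3 lines held 0 to 6 reads, and the young lines held 1 or 2 reads. Every comparison with E14 retina was DE and lower, with log2 fold changes of -6.08 (standard error 1.59, limma adjusted p = 0.00739) in MYCN-T58A, -6.93 (1.59, 0.00354) in old and -8.93 (1.59, 7.2e-04) in young DMC cells. Single lines moved these values, in MYCN-T58A DMC cells to -3.94 without DMC5, -6.76 without DMC4 and -7.56 without DMC6, and in old DMC cells to -5.97 without DMC3 and -8.25 without DMC1.

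NHLH1, a basic helix-loop-helix factor of newly born neurons, spread 349.7-fold between the lines DMC9 and DMC5. It had 34.5, 4.78 and 320.4 normalized counts in DMC4, DMC5 and DMC6, 5.78, 432 and 179 in DMC1, DMC2 and DMC3, 543, 1671 and 1640.3 in DMC8, DMC9 and DMC10, and 7707, 10651 and 7287 in the E14 retinas. The 3 young lines were below all 3 retinas, as for 38.1% of all genes. They were also above all 6 long-term lines, an order whose share over all genes was not computed.

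In MYCN-T58A DMC cells the log2 fold change of NHLH1 was -7.70 (standard error 1.51, limma adjusted p = 0.00135) and in old DMC cells it was -6.70 (1.51, 0.00326), both DE. The value in MYCN-T58A DMC cells was -9.20 without DMC6 and -6.30 without DMC5, and that in old DMC cells -7.91 without DMC2 and -4.91 without DMC1. In young DMC cells the log2 fold change was -2.88 (95% interval -6.19 to 0.43, limma adjusted p = 0.131), with means 6.65-fold apart. The standard error of 1.51 behind this interval is shared by all 4 groups. NHLH1 spread 67.0-fold within MYCN-T58A and 74.8-fold within old DMC cells, but 3.08-fold within young DMC cells and 1.46-fold within E14 retina. NHLH1 was DE in young DMC cells with limma's voom weights (adjusted p = 0.00542) and when only the young DMC and E14 retina libraries entered limma (adjusted p = 7.0e-04), and its adjusted p ran from 7.0e-04 to 0.292 over 15 alternatives.

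The AP-2 factors TFAP2A and TFAP2B, which act together in amacrine and horizontal cells of the mouse, were near 0 in all lines. TFAP2A had 1, 0 and 0 reads in DMC4, DMC5 and DMC6, 0, 0 and 1 in DMC1, DMC2 and DMC3, and 2, 0 and 0 in DMC8, DMC9 and DMC10, where the E14 retinas had 776, 812 and 721. TFAP2B had 0, 0 and 2 reads in DMC4, DMC5 and DMC6, 0, 2 and 0 in DMC1, DMC2 and DMC3, 10, 3 and 3 in DMC8, DMC9 and DMC10, and 2459, 2175 and 2319 in the E14 retinas. Both genes had their highest value among the lines in DMC8.

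As a ratio of reads, TFAP2A was 1789-fold lower in MYCN-T58A (counting interval 321 to 70699), 2177-fold lower in old (390.3 to 86004) and 984-fold lower in young DMC cells (272 to 8127). The limma adjusted p of TFAP2A was 1.3e-06, 1.5e-06 and 1.9e-06 in the same order. For TFAP2B the ratios were 2694-fold in MYCN-T58A (745 to 22248), 3277-fold in old (907 to 27065) and, as a ratio of means, 349-fold in young DMC cells, at an adjusted p of 1.3e-06, 1.5e-06 and 5.2e-06. Both genes were DE and lower in each group.

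PROX1, a homeodomain factor that promotes horizontal cell fate in the mouse and is also present in bipolar and AII amacrine cells, had 15.6, 0 and 79.2 normalized counts in DMC4, DMC5 and DMC6, 128, 17.8 and 14.1 in DMC1, DMC2 and DMC3, and 352, 27.0 and 74.3 in DMC8, DMC9 and DMC10. The E14 retinas had 6871, 6289 and 6481. DMC8 was highest again, at 5.38% of the retina mean, and DMC5 was without reads. The log2 fold change was -9.22 (standard error 1.42, limma adjusted p = 2.7e-04) in MYCN-T58A, -7.62 (1.42, 9.9e-04) in old and -6.17 (1.42, 0.00360) in young DMC cells. Without DMC6 or DMC5 the value in MYCN-T58A DMC cells was -10.65 or -7.49, in old DMC cells it was -8.60 without DMC1, and in young DMC cells -7.16 without DMC8 and -5.33 without DMC9.

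LHX1 was the only regulator that was not lowered in any group. This LIM homeodomain factor positions horizontal cells in their layer in the mouse, and in the chicken it marks the horizontal cells that have an axon. It had 847, 1317 and 395 normalized counts in DMC4, DMC5 and DMC6, 587, 1936 and 3082 in DMC1, DMC2 and DMC3, 1583, 2159 and 1811 in DMC8, DMC9 and DMC10, and 919.7, 537 and 806 in the E14 retinas. All 9 lines held at least 344 reads of LHX1. The young lines all lay above the retinas, as did 35.6% of all genes, while the old and the MYCN-T58A lines overlapped them.

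By group, LHX1 was at 853 ± 461 in MYCN-T58A DMC, 1869 ± 1249 in old DMC, 1851 ± 290.3 in young DMC and 754 ± 196 in E14 retina (SD, n = 3 each). The means of old and young DMC cells differed by less than their spread, as did those of MYCN-T58A DMC cells and E14 retina. None of the comparisons with E14 retina met the DE criteria. The log2 fold change was 0.05 in MYCN-T58A (standard error 0.56, 95% interval -1.17 to 1.27, limma adjusted p = 0.948), 1.05 in old (0.56, -0.18 to 2.27, 0.135) and 1.32 in young DMC cells (0.56, 0.10 to 2.54, 0.0665).

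The LHX1 calls depended on the libraries in the fit. In young DMC cells LHX1 was DE when limma was given only the young DMC and E14 retina libraries, at an adjusted p of 0.00134, the lowest of 0.00134 to 0.191 over 15 alternatives. In old DMC cells it was DE without DMC1, at a log2 fold change of 1.73 (adjusted p = 0.00880, among 0.00880 to 0.455 over 15 alternatives). Over all 9 lines the log2 fold change was 0.80 (0.46, adjusted p = 0.147), and without DMC1 it was 1.03 (adjusted p = 0.0204, among 0.0204 to 0.402 over 20 alternatives). Without library scaling factors the difference in MYCN-T58A DMC cells was -0.18, beside a median over all genes of -0.32.

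GAD1, the enzyme that makes GABA from glutamate, was detected in every line with at least 21 reads. It had 23.4, 31.1 and 76.9 normalized counts in DMC4, DMC5 and DMC6, 220.5, 58.2 and 60.1 in DMC1, DMC2 and DMC3, 362, 231 and 26.6 in DMC8, DMC9 and DMC10, and 1665, 969.6 and 1697 in the E14 retinas. DMC8, DMC9 and DMC1 kept 25.0%, 16.0% and 15.3% of the retina mean, and the other 6 lines 1.62 to 5.33%. GAD1 fell in each group, with a log2 fold change of -5.15 (standard error 0.88, limma adjusted p = 5.6e-04) in MYCN-T58A, -3.91 (0.88, 0.00327) in old and -3.40 (0.88, 0.00726) in young DMC cells. The old value was -4.54 without DMC1, and the young one -4.13 without DMC8 and -2.27 without DMC10.

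**Figure D2:**
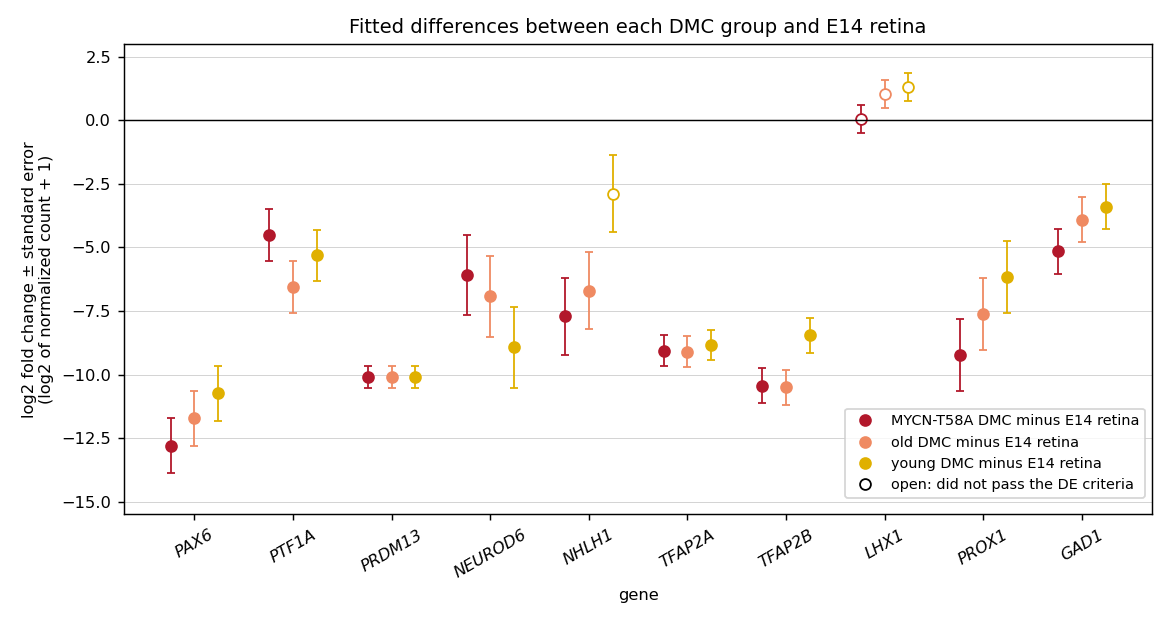
Log2 fold change with its standard error (log2 of normalized count plus 1) for each regulator in MYCN-T58A, old and young DMC cells against E14 retina, from the limma fit of all 12 libraries. Filled points met the DE criteria, and the open points are LHX1 in all 3 comparisons and NHLH1 in young DMC cells.

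Line by line, the regulators that remained detectable differed from line to line. DMC8 had the highest value of the 9 lines for PAX6, TFAP2A, TFAP2B, PROX1 and GAD1. The TFAP2A value there rests on 2 reads and that of TFAP2B on 10. The share of all genes with their highest value in DMC8 was not computed. DMC6 was highest for PTF1A and NEUROD6, DMC9 for NHLH1 and DMC3 for LHX1. DMC5 held reads of 5 regulators and at least 10 reads of 2, LHX1 and GAD1.

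Summed without LHX1, the normalized counts of the other 9 genes came to 0.384, 0.113 and 2.04% of the retina sum in DMC4, DMC5 and DMC6, to 1.25, 1.54 and 0.786% in DMC1, DMC2 and DMC3, and to 3.89, 5.72 and 5.16% in DMC8, DMC9 and DMC10. The 3 young lines were above the 6 long-term lines in this sum. NHLH1 was its largest part in the young lines, with 1671 of 1941 normalized counts in DMC9 and 1640.3 of 1752 in DMC10. In DMC1 NHLH1 made up 5.78 of 425. Without NHLH1 the young lines were not all above the long-term lines.

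DMC8 was also the highest of the lines for the glial transporter SLC1A3 and for ISL1. SLC1A3 had 21.2 normalized counts in DMC8 and 0 to 13.3 in the other lines, where the retinas had 1014 to 1323, and ISL1 had 27.1 in DMC8 and 0 reads in the other 8 lines. DMC8 did not lead in the summed markers of Müller glia or bipolar cells, with Müller glia markers at 17.7% of the retina mean and 9.76% to 35.3% in the other lines, and bipolar markers at 3.24% and 1.60% to 6.92% in the other lines. The part of other retinal cells in the DMC8 values was not tested.

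**Figure D3:**
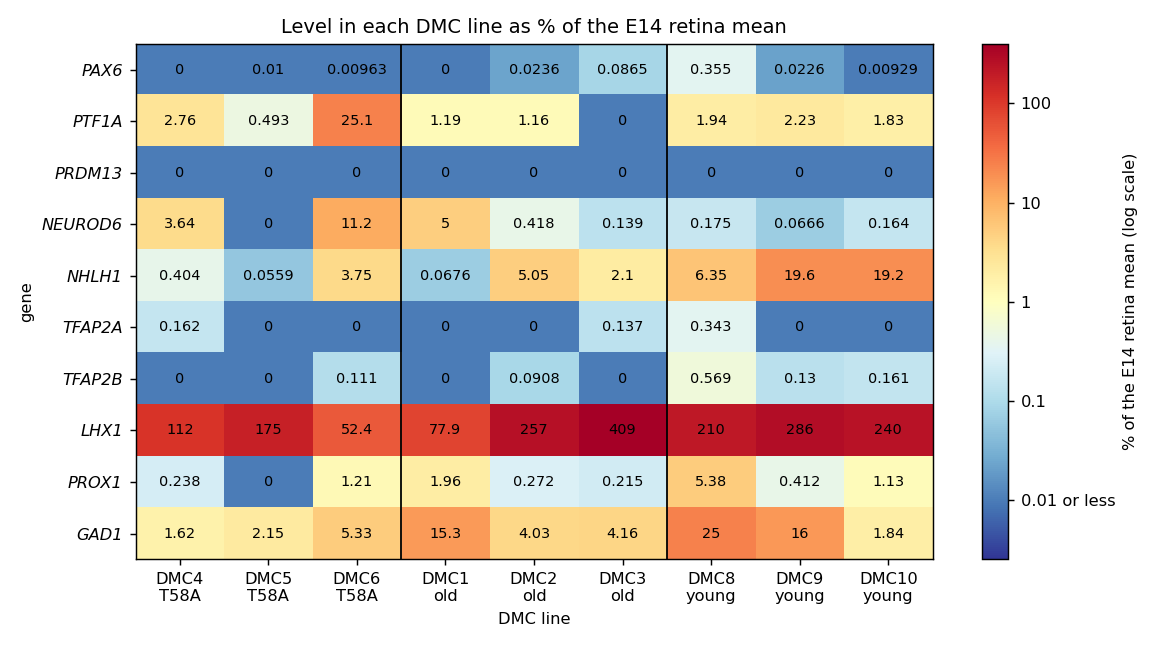
Normalized count of each regulator (rows) in each DMC line (columns, grouped as MYCN-T58A, old and young) as a percentage of the E14 retina mean, with colour on a log scale. LHX1 runs from 52.4% in DMC6 to 409% in DMC3, and outside LHX1 only GAD1, PTF1A, NEUROD6 and NHLH1 exceed 10% in any line.

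Between the long-term and the young lines with unmutated MYCN, no regulator was DE by limma, also with voom weights, beside 0.196% of all genes. At an unadjusted p under 0.05 there were 2, NHLH1 and TFAP2B, beside 9.34% of all genes. NHLH1 had a log2 fold change of -3.82 in old against young DMC cells (standard error 1.51, limma adjusted p = 0.459), and TFAP2B of -2.05 (0.70, 0.350).

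Every old line was below every young line for NHLH1, TFAP2B and PTF1A, 3 of the 10 genes, where 8.03% of all genes had this order. The PTF1A values that make up this order rest on 0 to 6 reads per line, and those of TFAP2B on 0 to 10. PAX6 and GAD1 had log2 fold changes of -0.99 and -0.51, which turned to 0.33 and 0.22 without DMC8.

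For MYCN-T58A against old DMC cells no regulator was DE by limma either, also with voom weights, beside 0.0393% of all genes, and 0 had an unadjusted p under 0.05, beside 19.7% of all genes. PTF1A had the largest difference, 2.05 (standard error 1.02, limma adjusted p = 0.290), with DMC6 and DMC4 above the old lines and DMC5 among them. Without DMC5 its difference was 3.15 (adjusted p = 0.0289, among 0.0289 to 0.643 over 15 alternatives), which met the criteria, and the number of DE genes over the whole table was then 2620, against 6 with DMC5 included. LHX1 differed by -1.0 (0.56, 95% interval -2.22 to 0.22, adjusted p = 0.339). The intervals were wide, up to -2.63 to 4.32 for NEUROD6.

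Other transcription factors of amacrine and horizontal cells were examined as a list of 20 genes, all tested. Of these, 16, 14 and 12 were DE and lower in MYCN-T58A, old and young DMC cells, and 1, 1 and 1 were DE and higher. The median log2 fold changes were -2.85, -2.67 and -2.28. Among all genes tested, 24.8%, 23.5% and 23% were DE and lower and 19.6%, 20.3% and 20.5% DE and higher. The 3 genes of the list with the highest levels in E14 retina were SIX3, PRDM8 and ISL1, and each was DE and lower in each group.

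ISL1, which in the chicken marks horizontal cells without an axon as well as ganglion, bipolar and cholinergic amacrine cells, was without reads in 8 of 9 lines, where the retinas had 5592, 4398 and 3524 normalized counts. PRDM8, a repressor related to PRDM13, averaged 27.6 ± 46.7 in MYCN-T58A DMC, 15.1 ± 18.7 in old DMC, 28.3 ± 20.6 in young DMC and 4508 ± 369 in E14 retina (SD, n = 3 each). SIX3, an eye field factor, kept a larger share, with 2174 ± 812 in MYCN-T58A DMC, 2435 ± 299 in old DMC, 2083 ± 167 in young DMC and 7053 ± 1314 in E14 retina.

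The factors that act beside or before PTF1A in horizontal and amacrine cell formation were named after their values had been seen. ONECUT1, a horizontal cell determinant in the mouse, was not DE in any group, with 161 ± 38.5 in MYCN-T58A DMC, 302 ± 39.0 in old DMC, 249.5 ± 24.5 in young DMC and 186 ± 48.7 in E14 retina (SD, n = 3 each). RORB, which in the mouse acts before PTF1A, was DE and lower in each group, with 663 ± 546 in MYCN-T58A DMC, 1155 ± 419 in old DMC and 999 ± 237 in young DMC, beside 4258 ± 626 in E14 retina. Of the horizontal cell genes named here, LHX1 and ONECUT1 were not DE in any group. TFAP2A, TFAP2B and ISL1 were near or at 0 reads and PROX1 reached at most 5.38% of the retina mean in the lines. Since ONECUT1 was picked after its values were seen, and its listed relatives are not reported here, no split of horizontal cell genes is drawn.

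FOXN4, the progenitor factor that activates PTF1A in the mouse, had 7.80 ± 8.42, 15.1 ± 10.4 and 33.0 ± 4.59 in MYCN-T58A, old and young DMC cells and 84.7 ± 6.62 in E14 retina. It was DE and lower in MYCN-T58A (log2 fold change -4.06, limma adjusted p = 0.00368) and old DMC cells (-2.72, 0.0297) and did not pass the criteria in young DMC cells (-1.34, 0.252). FOXN4 was not DE between old and young DMC cells (-1.38, 0.727).

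Of the closest relatives and partners of the 10 regulators, 16 of 19 listed genes were tested. In MYCN-T58A, old and young DMC cells, 9, 8 and 7 were DE and lower, beside 24.8%, 23.5% and 23% of all genes. DE and higher were 2, 2 and 1, beside 19.6%, 20.3% and 20.5% of all genes. The median log2 fold changes of the list were -1.95, -1.36 and -2.03. The list was not split by the libraries through which its genes passed the filter, so its counts are a description. The AP-2 relative TFAP2E had 0 to 3 reads in every line and 969 to 1158 normalized counts in the retinas, and so passed the filter through the retinas. TFAP2D, in contrast, was not DE in any group, and ran from 0 in DMC4 to 659 in DMC2, with 448 to 514 in the retinas. Both were named after their values had been seen. TCF12, the E protein that pairs with basic helix-loop-helix factors, was at 30766 ± 16506 in MYCN-T58A DMC, 23314 ± 3981 in old DMC, 28922 ± 159 in young DMC and 24481 ± 467 in E14 retina, with no DE call.

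The NEUROD family did not move as 1 group. NEUROD4, a factor of amacrine and bipolar cells, was DE and lower with 91.6 ± 10.3 in MYCN-T58A DMC, 310.3 ± 116 in old DMC, 209.7 ± 93.7 in young DMC and 9969.8 ± 521 in E14 retina (SD, n = 3 each). NEUROD1, which photoreceptors also use, was DE and lower in MYCN-T58A DMC cells (log2 fold change -1.55, limma adjusted p = 0.0131), and was not DE in old (-0.96, 0.0946) or young DMC cells (-0.72, 0.205), nor between MYCN-T58A and old DMC cells (-0.60, 0.476).

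NEUROD2, in contrast, rose in all 3 groups. It had 2414 to 3942 normalized counts in MYCN-T58A, 2704 to 5260.2 in old and 717 to 2411 in young DMC lines, and 407 to 422 in the retinas, without overlap. Of all genes, 35.6% had every young line above every retina. The same share for the MYCN-T58A lines, for the old lines and for all lines together was not computed. The log2 fold change was 2.80 (limma adjusted p = 1.5e-04), 3.27 (5.5e-05) and 1.59 (0.00563) in MYCN-T58A, old and young DMC cells.

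LHX5, the closest relative of LHX1, had 31.2, 1.19 and 98.8 normalized counts in DMC4, DMC5 and DMC6, 9.63, 109.9 and 159.6 in DMC1, DMC2 and DMC3, 0, 5.39 and 0 in DMC8, DMC9 and DMC10, and 0, 0 and 1.82 in the retinas. DMC5 was within the range of the retinas and the other 5 long-term lines were above it. LHX5 met the criteria as higher in MYCN-T58A (3.76, limma adjusted p = 0.0412) and old DMC cells (5.34, 0.00793). In young DMC cells its log2 fold change was 0.39 (0.835). LHX5 had at most 2 reads in a retina and 6 in a young line, and passed the filter only through the long-term lines. Its calls as higher in those groups are therefore a description. The difference between old and young DMC cells was itself not DE (4.95, 0.249).

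Of 23 listed transmitter and effector genes of inhibitory neurons 20 were tested. In MYCN-T58A, old and young DMC cells, 7, 7 and 10 of these were DE and lower, beside 24.8%, 23.5% and 23% of all genes. DE and higher were 2, 1 and 2, beside 19.6%, 20.3% and 20.5% of all genes. The median log2 fold changes of the list were -1.80, -2.0 and -2.98. This list was not split by the filter either, so its counts are a description. CALB2, the calcium-binding protein calretinin, was DE and lower in each group, with 6.69, 977 and 81.5 normalized counts in DMC4, DMC5 and DMC6, 346, 136 and 505 in DMC1, DMC2 and DMC3, 229.7, 15.3 and 59.8 in DMC8, DMC9 and DMC10, and 3936 to 4824 in the retinas. ABAT, which breaks GABA down, was DE and higher in each group, at 3030.3 ± 866 in MYCN-T58A DMC, 3039 ± 354 in old DMC, 3162 ± 390.2 in young DMC and 978 ± 128 in E14 retina (SD, n = 3 each). GAD1 and ABAT, the enzymes at the start and the end of the GABA pathway, thus differed from E14 retina in opposite directions.

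SLC6A9, the glycine transporter that glycinergic amacrine cells and glia use, was DE and higher in MYCN-T58A DMC cells, at 12971 ± 7555, and not DE at 5634 ± 1918 in old and 3533 ± 707 in young DMC cells, beside 3391 ± 499 in E14 retina. DMC4 and DMC6, at 19995 and 13942, stood above all other libraries. SLC5A7, the choline transporter, was not DE in MYCN-T58A (27.6 ± 20.1) or old DMC cells (94.9 ± 102) and was DE and higher in young DMC cells, at 178 ± 83.7, beside 8.94 ± 2.44 in E14 retina. Neither gene was DE between old and young DMC cells or between MYCN-T58A and old DMC cells. MYCN-T58A and young DMC cells were not tested against each other. STX1A, a synaptic membrane protein, was not DE in any comparison with E14 retina, at 4010.0 ± 3596 in MYCN-T58A DMC, 1101 ± 168 in old DMC, 1521 ± 475 in young DMC and 1664 ± 110.1 in E14 retina.

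Single lines held single genes of these lists near or above retina levels, and these were named after their values had been seen. SLC32A1, which loads GABA and glycine into vesicles, had 882 normalized counts in DMC1 and 2.22 to 51.7 in the other 8 lines, with 1113 to 1613 in the retinas, and was DE and lower in each group. CALB1, a marker of horizontal cells in several species, had 869 in DMC1, 0 to 68.9 in the other lines and 37.9 to 48.8 in the retinas. GAD2, the other GABA enzyme, had 495 in DMC6, 172 in DMC1 and 7.80 to 44.8 in the other 7 lines, with 121 to 157 in the retinas, and was not DE in any group. DMC6 and DMC1 were also among the 3 lines with the most NEUROD6, while the other of these, DMC4, had the lowest GAD2 of the lines, 7.80.

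**Figure D4:**
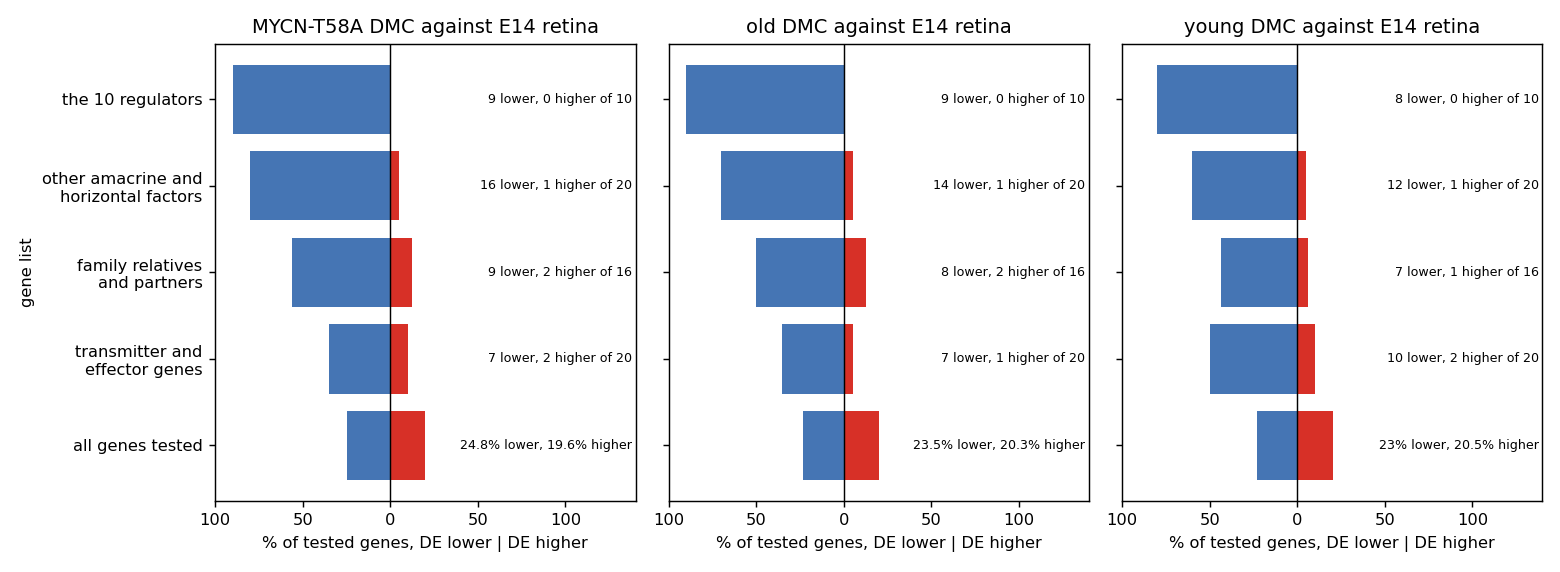
Share of tested genes (horizontal axis, percent) that were DE and lower (blue, to the left) or DE and higher (red, to the right) in MYCN-T58A, old and young DMC cells against E14 retina, for the 10 regulators, the 3 related lists and all 15284 genes. The regulators have 9, 9 and 8 of 10 genes lowered, and all genes have 24.8%, 23.5% and 23% lowered. The lists include genes that passed the filter only through the retinas or only through lines, so their counts are a description.

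Some markers of other cells also differed between the lines and the retinas, in both directions. Over all genes tested, 24.8%, 23.5% and 23% were DE and lower in MYCN-T58A, old and young DMC cells. The shares DE and higher were 19.6%, 20.3% and 20.5%. The marker lists were not split by the libraries through which their genes passed the filter, so their counts are a description. Of the 4 bipolar markers tested, 3, 3 and 3 were DE and lower in MYCN-T58A, old and young DMC cells, and their sum was 2.14% to 6.92% of the retina mean in MYCN-T58A, 1.60% to 3.18% in old and 1.81% to 3.24% in young DMC lines. Of 6 Müller glia markers, 4, 4 and 4 were DE and lower, with sums of 9.76% to 35.3%, 10.4% to 20.3% and 16.3% to 17.9% of the retina mean in the same order. Of 8 ganglion cell markers, 4, 5 and 5 were DE and lower and 1, 1 and 2 DE and higher. Their sum was 31.6% to 77.0%, 37.3% to 77.5% and 73.6% to 121% of the retina mean, beside 74.6% to 132% in the single retinas. Their median log2 fold changes were -2.33, -4.12 and -4.18, so the sum does not stand for each marker. Of 6 microglia and blood markers tested, 4, 4 and 3 were DE and lower and 0, 1 and 1 DE and higher, and the sum of the 7 in the table was 3.00% to 5.63%, 4.01% to 19.2% and 10.0% to 10.6%.

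The summed photoreceptor markers, 8 genes, were at 25.2% to 146% of the retina mean in MYCN-T58A, 84.8% to 122% in old and 115% to 163% in young DMC lines. Of these, 2, 2 and 0 genes were DE and lower and 2, 3 and 3 DE and higher. The median log2 fold changes of these photoreceptor markers were -0.61, 1.60 and 1.89, so the sum does not stand for each marker. Of 10 listed photoreceptor markers, 8 were in the table. The counts in this paragraph stand beside 24.8%, 23.5% and 23% of all genes DE and lower. For DE and higher, the shares of all genes were 19.6%, 20.3% and 20.5%. Of 5 pigment epithelium markers tested, 0, 1 and 0 were DE and lower and 2, 2 and 2 DE and higher, and the sum of the 6 in the table was 9964% to 16179%, 16619% to 31143% and 14893% to 28744% of the retina mean. PMEL, a protein of pigment granules, made up most of that sum, with 23160.0 to 35489.7 normalized counts in MYCN-T58A, 38825 to 72941 in old and 34798 to 67298 in young DMC lines and 109 to 136 in the retinas, while RPE65, the retinoid isomerase of this epithelium, had 12.6 to 16.7, 16.4 to 37.5 and 37.7 to 80.9 in the lines and 3.52 to 11.5 in the retinas. Of 4 mesenchyme markers tested, 0, 0 and 0 were DE and lower and 1, 0 and 0 DE and higher, with sums over the 5 in the table of 167% to 486%, 56.6% to 242% and 212% to 481% of the retina mean. The part of these other cell types in the regulators' differences was not tested.

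For regulators with at least 10 reads in 5 or more lines, the genes with the most similar pattern were sought by the mean absolute difference of centred log2 values over the 12 libraries, as a description. LHX1 was closest to HUNK, a kinase gene (0.255), to the mitochondrial gene ND6 (0.296) and to MRPS18A of the mitochondrial ribosome (0.308). HUNK had 860.3, 979.8 and 457 normalized counts in DMC4, DMC5 and DMC6, 383, 2615 and 2578 in DMC1, DMC2 and DMC3, 1239, 2211 and 1374 in DMC8, DMC9 and DMC10, and 738, 532 and 633 in the retinas. PROX1 was closest to VSX1 (0.881), a bipolar cell factor, SORCS3 (0.926) and BHLHE23 (0.928). GAD1 was closest to DAB2 (0.528), PRXL2C (0.628) and ABLIM1 (0.667), of which DAB2 and PRXL2C held few reads in the lines. NHLH1 had no match as close, with VSTM2L at 1.09 and HPCA at 1.18.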

How the data were processed

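RNA from 9 DMC lines and 3 E14 retinas was sequenced in 12 bulk libraries. The authors counted reads per gene with featureCounts 2.0.0 on galGal6 (submitters' processing notes) and deposited 1 table of signal values, which are counts divided by trimmed mean of M-values (TMM) factors. All 205632 values above 0 came out as whole reads (tolerance 0.0001) after multiplication by 1 of 12 constants, equal to the TMM factors, but for only 8.36% of values was that constant the library's own factor. The recovered reads, 20984957 to 35088450 per library, were divided by library total and own TMM factor and scaled to the mean library. The deposited values themselves are not counts. No count model was fitted to the recovered reads, and the voom weights among the alternatives were computed from these reads. A pseudocount of 1 was added, and limma 3.58.1 (R 4.3.3, eBayes with trend) was fitted on the log2 scale over 12 libraries in 4 groups for genes with at least 10 reads in at least 3 libraries, with Benjamini-Hochberg adjustment over 15284 genes. P-values measure the spread between lines or retinas, each sequenced once.

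The members, lists and alternatives were chosen with earlier results of these data known. Named genes are the 10 regulators, the 3 genes of each related list highest in E14 retina, genes of a list DE and higher in a DMC group, and the 3 nearest patterns per regulator, of which some genes are not reported here. Names missing from the table were added by Entrez identifier from RefSeq GRCg7b (14940 of 15416 matched, 1204 added). The code was tested on simulated data. Alternatives were other scalings, pseudocounts of 0.1 and 10, other read filters, voom weights, fits of the compared groups alone and fits without each library. Coordinates and sequences were not used here. Python 3.11.15, pandas 2.3.3 and matplotlib 3.10.9 were used for tables and figures.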

Additional observations from a re-analysis of the deposited data

How the results depend on the processing

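Against E14 retina, no DE call of a regulator was lost under any alternative, and the direction reversed for LHX1 in MYCN-T58A DMC cells alone (0.05 with the TMM factors), to -0.32 with the deposited values, to -0.18 without TMM factors, and within -0.35 to 0.52 without each library in turn (limma adjusted p 0.465 to 0.983 over 15 alternatives). The calls gained were of NHLH1 and LHX1, with their values given there. Omitting the TMM factors moved the median gene to -0.32, -0.38 and -0.45 in MYCN-T58A, old and young DMC cells, and the DE split to 2316 higher and 4494 lower (3106 and 3588 with them) in old and to 2200 and 4653 (3137 and 3512) in young DMC cells. With the deposited values it was 2076 and 4694 in MYCN-T58A DMC cells (2999 and 3795).

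Between DMC groups the counts of DE genes varied. For old against young DMC cells 30 genes were DE, 44 with a pseudocount of 10, the most of any alternative, 19 with a filter of 50 reads, 1 with these groups alone, and 5 to 17 without each library in turn (DMC9 5, DMC10 12, DMC8 13, DMC1 14, DMC2 and DMC3 17). For MYCN-T58A against old DMC cells 6 were DE, 105 with the deposited values, 13 with a pseudocount of 10, 10 with a filter of 1 read, 35 with these groups alone, and 0 to 2620 without each library (0 without DMC2, 1 without DMC1 or DMC3, 10 without DMC4, 29 without DMC6, 2620 without DMC5). Regulators DE in that comparison ranged from 0 to 1 without each library. The regulators that reversed there were not DE in either direction. For old against young DMC cells the ranges without each library were -1.85 to 0.33 for PAX6 and -1.64 to 0.22 for GAD1, positive without DMC8, and -0.78 to 0.41 for LHX1, positive without DMC1. For MYCN-T58A against old DMC cells they were -0.63 to 2.99 for NEUROD6 (-0.016 with a pseudocount of 0.1), negative without DMC3 or DMC6, -2.79 to 0.40 for NHLH1, positive without DMC2 or DMC5, and -3.03 to 0.14 for PROX1, positive without DMC5. The causes were not tested.

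No paired analysis was possible because the replicate labels name lines and retinas and share no numbers across groups. Depth limits what can be said of PAX6, PTF1A, NEUROD6, TFAP2A and TFAP2B within the lines, where most libraries hold under 10 reads. PRDM13 had 0 reads in all 9 lines.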
